A study of Mus musculus with 12 samples.

Results

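The effect of ethanol that WT and p53 KO mice had in common was examined in the somatosensory cortex of 7-day-old mice. Its members are all 12 of the 12 libraries of the study, and they were grouped by the treatment in their labels: 6 libraries from mice that received ethanol (EtOH) were compared with 6 from mice that received saline, with Genotype as a blocking factor, on read counts summed per gene symbol. The 12 libraries are 3 each of WT saline, WT EtOH, KO saline and KO EtOH, and each is from a separate male pup on a C57BL/6 background. The p53 KO pups carried the Trp53tm1Tyj allele, a targeted disruption of Trp53 (the gene that encodes p53) in every cell of the body, and were offspring of heterozygous parents, as were the WT pups. On postnatal day 7 each pup was injected intraperitoneally with ethanol or saline and injected again later on the same day, and the brain was frozen 8 hours after the second injection. Part of the cortices were isolated by laser microdissection and the others with a hole punch from frozen tissue, and the sources used here do not say which library was made by which method.

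Ethanol given to rodents in the first postnatal week, when synapses form rapidly, is known to block NMDA receptors, to enhance GABA-A receptors and to trigger apoptosis of cortical neurons. p53 is a transcription factor that is stabilised by DNA damage and other stress and that switches on cell cycle inhibitors, proapoptotic genes and its own inhibitor Mdm2. Ethanol also raises circulating glucocorticoids and is oxidised to acetaldehyde and acetate, and stress hormones, metals and oxidative stress are known inducers of the metallothioneins, which bind zinc and copper. A response that does not need p53 should be present in mice that lack it, so each gene below is given in both genotypes.

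The disrupted gene was examined first. Trp53 was at 3.67, 26.2 and 14.4 in WT saline, 14.8, 7.23 and 20 in WT EtOH, 27.6, 11.1 and 11.7 in KO saline and 28.1, 23.4 and 28.7 in KO EtOH libraries, in normalized CPM as defined below. Counts of Trp53 were not lower in KO mice, and a count summed over the whole gene does not check the genotype, because the allele leaves part of the gene in place. Its log2 fold change with ethanol was 0.32 (exact permutation p = 0.33).

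Depth and tissue composition differed between libraries. Total counts ranged from 719735 to 17066392, and the 2 shallowest libraries were KO EtOH replicate 12 (719735) and WT saline replicate 3 (1953154). Levels below are CPM, the count of a gene scaled to the total of its library, after TMM normalization (normalized CPM). A gene with no count in KO EtOH replicate 12 may have had a level of up to 5.01 there, the level of 3 counts, whereas that limit was 1.54 in WT saline replicate 3 and between 0.17 and 0.551 in the other 10 libraries; these limits cover counting error only. Markers of excitatory cortical neurons were present in every library, with a summed level of 7 genes between 1042 and 1784. WT EtOH replicate 4 stood apart, with a summed level of 1422 for 4 thalamic markers (38.6 to 138 in the other 11 libraries) and of 5018 for 5 choroid plexus markers (2 to 2253 in the others). The summed level of 5 blood markers was 1319, 337 and 482 after saline in WT mice (replicates 1, 3 and 13, the order used for this group throughout) and 93.2, 145 and 50.2 after ethanol (replicates 4, 5 and 14). In KO mice it was 35.9, 92.9 and 99.3 after saline (replicates 7, 8 and 9) and 32.1, 766 and 29.1 after ethanol (replicates 10, 12 and 18). Blood markers were thus lower after ethanol in WT mice, and higher only in replicate 12 among the KO EtOH libraries. The 7 striatal markers (Drd1, Drd2, Adora2a, Rgs9, Gpr6, Ppp1r1b and Penk) summed to between 81.1 and 199 in the 6 saline libraries, to 122, 466 and 927 in WT EtOH and to 136, 239 and 421 in KO EtOH libraries. The other marker lists had median log2 fold changes of -0.34 (excitatory neurons), 0.41 (interneurons), -0.05 (astrocytes), 0.21 (oligodendrocyte lineage), -0.20 (microglia), 0.22 (endothelium and pericytes), -0.33 (meninges), 0.63 (hippocampus), 1.32 (thalamus) and 0.76 (choroid plexus). The part of these differences in the results that follow was not tested.

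**Figure D1:**
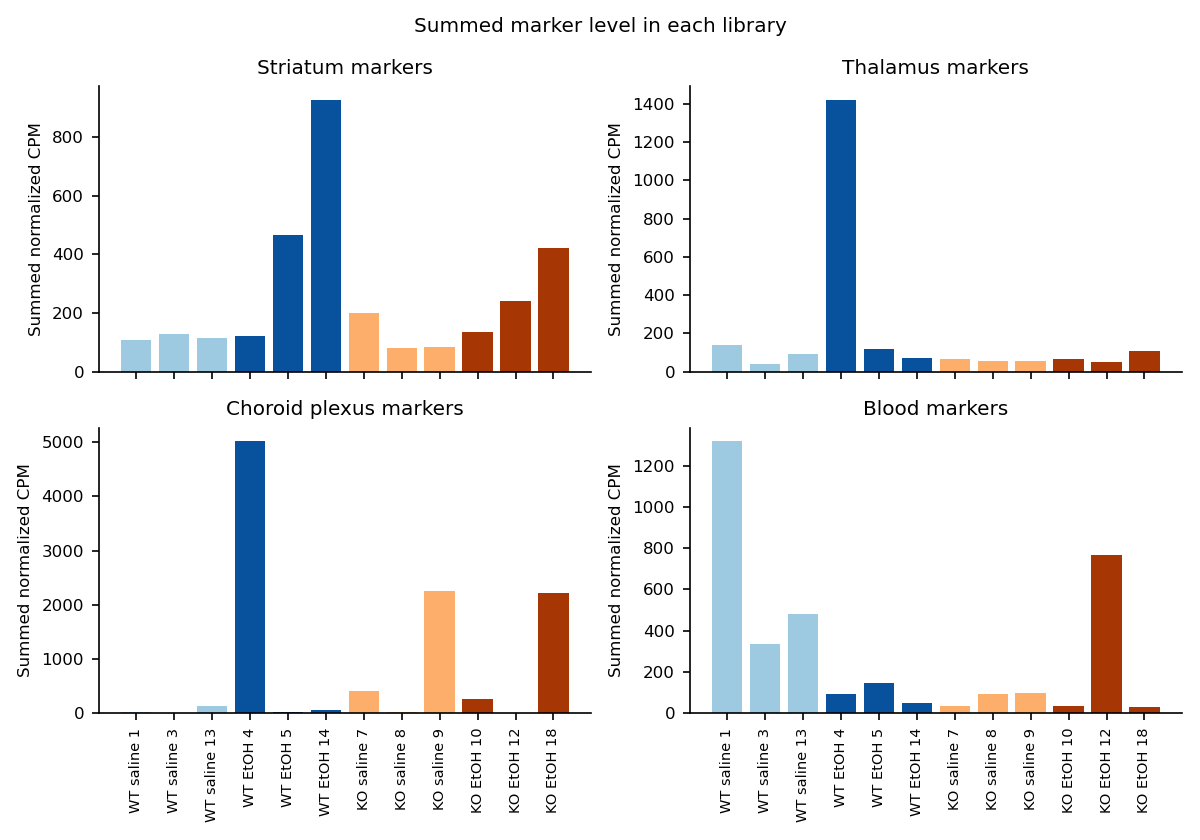
Summed normalized CPM (vertical axes, linear) of the striatal, thalamic, choroid plexus and blood marker lists in each of the 12 libraries (bars, coloured by group). Striatal markers exceeded 400 in WT EtOH 5, WT EtOH 14 and KO EtOH 18, thalamic markers exceeded 1400 in WT EtOH 4 alone, and blood markers were highest in WT saline 1 and KO EtOH 12.

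Of the 14739 genes tested, 0 had a main effect of ethanol at an adjusted p under 0.05 across both genotypes in the edgeR quasi-likelihood test (0% of genes tested), and the lowest adjusted p was 0.871. With DESeq2, 14 genes were at this level, all of them higher after ethanol: Rasgrf1, Six3, Pcp4l1, Scn4b, Isl1, Cfap100, Crabp1, Rxrg, Muc1, Ecel1, B3galt5, Gpr101, Ido1 and Penk. At an unadjusted p under 0.05, the edgeR test gave 775 genes (5.26% of those tested), 464 higher (3.15%) and 311 lower (2.11%). Of these, 762 had the same direction in WT and KO mice, which the choice of genes by their effect across both genotypes favours. Over all genes tested, 43.3% had the same sign in both. The count of 775 depended on single libraries. It was 1983 without KO EtOH replicate 12 and 1421 without WT saline replicate 3, and it was 492 without WT saline replicate 1, 472 without WT EtOH replicate 4, 465 without KO saline replicate 8 and 486 without KO EtOH replicate 18. Without both shallow libraries, 1608 genes were higher (10.7% of 14967) and 1899 lower (12.7%), and 0 had an adjusted p under 0.05 in edgeR. Without the 3 libraries WT EtOH replicate 4, WT saline replicate 3 and KO EtOH replicate 12, 1448 genes were higher (9.78% of 14801) and 1217 lower (8.22%), again with 0 at an adjusted p under 0.05. Both of these settings left WT saline with replicates 1 and 13. Replicate 1 itself stood apart, with the lowest TMM factor (0.564) and a Spearman correlation across genes as low as 0.66 (with WT EtOH replicate 4). Its summed level of 6 meningeal markers was 1189, against 33.9 to 443 in the other libraries. The reduced settings are therefore not free of unusual libraries. Scaling by library size alone, without TMM factors, moved the median log2 fold change of all genes from 0.01 to 0.23 and the split from 464 higher and 311 lower to 679 higher and 50 lower, and limma on the authors' RPKM values gave 241 higher and 366 lower. None of the genes named below reached an adjusted p under 0.05 in edgeR, so their values are descriptions of size and direction, and their unadjusted p-values rank them and no more.

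The log2 fold changes had the same sign in WT and KO mice for 6377 genes (43.3%) and opposite signs for 8362 (56.7%). Of all genes, 23.3% were higher and 19.9% lower in both genotypes, the shares beside which the counts of list members are given. The Spearman correlation of the WT and KO fold changes was -0.15 across genes, which are not independent of each other. In WT mice 11 genes (0.0746%), of which 10 were higher, had an adjusted p under 0.05 and 2704 (18.3%) reached that level unadjusted. In KO mice 0 genes reached an adjusted p under 0.05 in edgeR and 465 an unadjusted p under 0.05 (3.15%). The Genotype x Treatment interaction had an unadjusted p under 0.05 for 2237 genes (15.2%) and an adjusted p under 0.05 for 0 genes in edgeR, with a lowest adjusted p of 0.140. Both genotypes had an unadjusted p under 0.05 for 112 genes, of which 23 had the same direction in both and 89 opposite directions. Another description counts the genes whose 3 EtOH libraries were all above, or all below, the 3 saline libraries in WT mice and again in KO mice. This held for 80 genes, 38 higher (0.258% of those tested) and 42 lower (0.285%). In opposite directions, 169 genes were higher in every EtOH library of WT mice and lower in every one of KO mice, and 87 were the reverse. Of the 80 genes, 24 had 3 or fewer counts in KO EtOH replicate 12 (13 of those higher and 11 of those lower), so their order in KO mice rests on the other 2 EtOH libraries. Nothing about the size of the shared effect is read from the number of genes without overlap, and for such a gene the exact permutation test below always gives its smallest p.

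**Figure D2:**
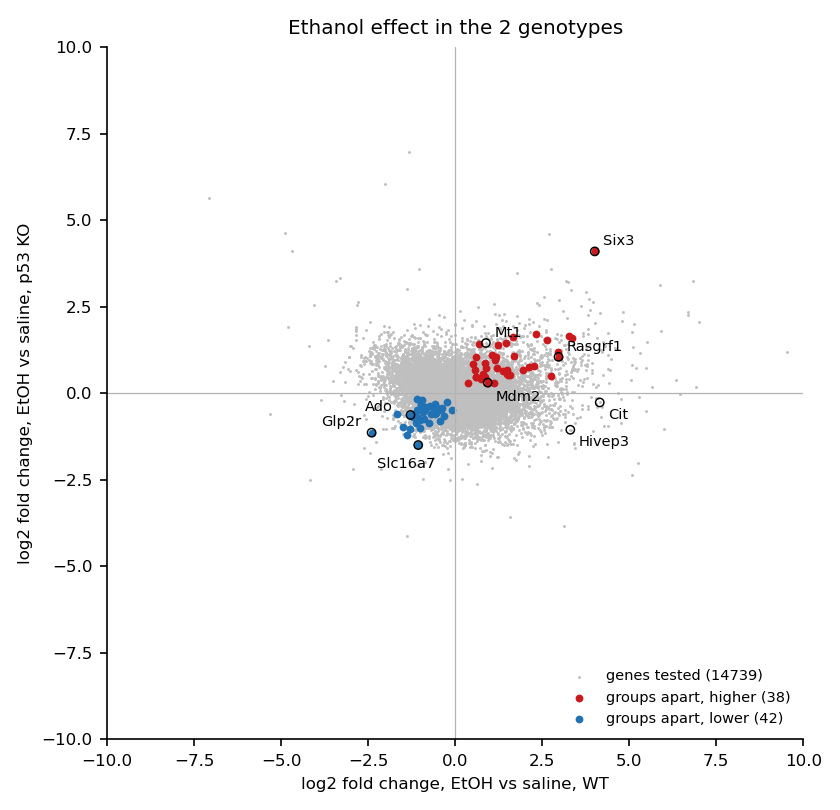
log2 fold change of EtOH versus saline in WT mice (horizontal axis) and in p53 KO mice (vertical axis) for the 14739 genes tested (grey points), with the 38 genes (red) and 42 genes (blue) whose EtOH and saline libraries did not overlap in either genotype. The cloud has no positive slope, and the coloured genes lie in the 2 same-sign quadrants, as their definition requires, while Cit and Hivep3 were far from 0 in WT mice alone or opposite in the 2 genotypes.

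The gene with the smallest p was Rasgrf1 (chr9:89909775-90026979, build mm10), a brain-enriched guanine nucleotide exchange factor that couples calcium and NMDA receptor signalling to Ras. Its level was 10.1, 6.17 and 7.28 normalized CPM after saline and 93.3, 48.6 and 44.3 after ethanol in WT mice. In KO mice it was 22.6, 15.5 and 25.2 after saline and 37.7, 66.9 and 30.2 after ethanol. The groups did not overlap in either genotype. The log2 fold change across genotypes was 2.0 (standard error 0.41, unadjusted p = 0.000183, adjusted p = 0.871 in edgeR and 0.00473 in DESeq2), and the exact permutation test within genotypes gave p = 0.005 (two-sided), the smallest its 400 assignments can give. The effect was larger in WT mice (2.97) than in KO mice (1.05), with an unadjusted interaction p of 0.00584. It was between 1.73 and 2.23 when each library was left out in turn, and 1.47 without the 3 libraries named above.

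B3galt5, a galactosyltransferase of glycolipid and glycoprotein synthesis, had the same order: 2.94, 5.14 and 4.98 after saline and 29.3, 13.8 and 18.4 after ethanol in WT mice, and 6.49, 6.32 and 9.04 after saline and 9.32, 11.7 and 16.4 after ethanol in KO mice. All 3 EtOH libraries lay above all 3 saline libraries in each genotype, and the log2 fold change was 1.51 (standard error 0.37, exact permutation p = 0.005). A pair of genes of motile cilia and flagella, Cfap100 and Drc1, had groups that did not overlap and were higher after ethanol. Dnaaf2, an assembly factor of axonemal dynein, and the ciliary transport gene Ttc30a1 had groups without overlap in the other direction (log2 fold changes -0.64 and -1.30). No direction of ciliary genes is read from these genes. Cfap100 was at 0.367, 0.514 and 0.743 in WT saline and 11.8, 2.69 and 3.16 in WT EtOH libraries, and at 4.43, 1.46 and 3.07 in KO saline and 10.8, 5.01 and 9.45 in KO EtOH libraries, where the value of 5.01 is 3 counts. Drc1, a subunit of the nexin-dynein regulatory complex that was singled out after its values were seen, was between 6.8 and 9.77 in WT saline and between 20 and 22.9 in WT EtOH libraries, and between 12.5 and 17.6 in KO saline and between 18.8 and 38.4 in KO EtOH libraries. The log2 fold change was 2.33 for Cfap100 and 1.00 for Drc1. Low-abundance genes with the same separation were Ccdc60 (log2 fold change 2.47), a coiled-coil protein gene, Sgpp2 (2.01), a sphingosine-1-phosphate phosphatase, and Ldhd (2.01), a D-lactate dehydrogenase of mitochondria. In KO EtOH replicate 12 their values rest on 1, 6 and 4 counts.

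Metallothionein 1 (Mt1, chr8:94179089-94180327) was among the genes with the smallest p and is abundant enough to be measured in every library. Its level was 66.7, 45.2 and 25.0 in WT saline and 111, 76.6 and 63.8 in WT EtOH libraries. In KO mice it was 44.0, 30.7 and 40.1 after saline and 85.3, 114 and 115 after ethanol. The KO groups were apart, whereas in WT mice 1 saline library (66.7) exceeded 1 EtOH library (63.8). The log2 fold change was 1.16 across genotypes (standard error 0.28, unadjusted p = 0.000844, exact permutation p = 0.01), 0.88 in WT mice and 1.45 in KO mice, with an unadjusted interaction p of 0.311. The value remained between 1.05 and 1.36 when each library was left out in turn. Mt2, its neighbour on chromosome 8, was at 106, 38.0 and 35.5 in WT saline and 110, 93.0 and 56.7 in WT EtOH libraries, and at 31.4, 33.7 and 32.0 in KO saline and 51.5, 18.4 and 105 in KO EtOH libraries. The Mt2 groups overlapped in both genotypes, and its log2 fold change was 0.71 (standard error 0.38, exact permutation p = 0.25). The value of 18.4 in KO EtOH replicate 12 rests on 11 counts.

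The RefSeq promoters of both genes (build GRCm38.p6, plus strand, 250 bases before to 50 after the start) are shown because metals are known to act on Mt1 and Mt2 through sites in this region. Capitals mark the letters TGCNCNC on either strand. This pattern includes the core of the metal response element (TGCRCNC, with R for A or G) but is wider than it. The Mt1 window (chr8:94178839-94179138) holds 3 matches and the Mt2 window (chr8:94172368-94172667) holds 6, while 51.0% of 32851 mouse promoters of the same length hold at least 1 match and 20.2% hold 2 or more. A match describes the letters only.
Mt1: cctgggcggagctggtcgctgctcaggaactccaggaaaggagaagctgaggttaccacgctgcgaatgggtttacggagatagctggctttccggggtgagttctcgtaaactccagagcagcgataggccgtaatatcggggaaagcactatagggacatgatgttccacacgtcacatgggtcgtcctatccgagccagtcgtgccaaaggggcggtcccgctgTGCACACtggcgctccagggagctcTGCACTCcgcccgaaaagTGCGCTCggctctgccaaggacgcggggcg
Mt2: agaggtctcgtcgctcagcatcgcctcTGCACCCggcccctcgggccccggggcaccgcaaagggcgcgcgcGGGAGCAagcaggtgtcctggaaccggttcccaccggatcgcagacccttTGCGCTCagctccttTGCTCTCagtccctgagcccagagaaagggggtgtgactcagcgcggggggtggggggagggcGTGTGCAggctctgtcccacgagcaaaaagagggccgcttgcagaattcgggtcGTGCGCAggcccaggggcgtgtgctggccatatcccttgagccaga

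The list of 20 glucocorticoid-responsive genes, of which 19 were tested, had Mt1 as its only member at an unadjusted p under 0.05. Its median log2 fold change was 0.26, beside 0.01 over all genes tested, and was 0.39 in WT and 0.18 in KO mice, and 8 members were higher in both genotypes and 1 lower in both (23.3% and 19.9% of all genes). Tsc22d3 and Fkbp5, classical targets of the glucocorticoid receptor, had log2 fold changes of -0.41 and -0.11, with values of 0.09 and 0.21 in WT mice and -0.91 and -0.43 in KO mice, and Sgk1 was at -0.01. The gene lower in both was Errfi1, an inhibitor of the EGF receptor. Its log2 fold change was -0.48 (standard error 0.24), with 32.2, 23.1 and 33.3 in WT saline, 22.8, 18.3 and 18.6 in WT EtOH, 16.9, 19.0 and 16.6 in KO saline and 15.6, 8.36 and 14.3 in KO EtOH libraries, so that its groups did not overlap in either genotype.

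Several of the genes with the largest differences are known in the striatum or in the basal forebrain from which it develops. Penk, which encodes the enkephalin precursor of indirect-pathway striatal neurons, was at 34.5, 5.66 and 9.14 in WT saline and 18.3, 111 and 185 in WT EtOH libraries, and at 17.3, 5.68 and 4.74 in KO saline and 14.6, 60.2 and 48.3 in KO EtOH libraries. Its log2 fold change was 2.38 (standard error 0.60, exact permutation p = 0.02), yet 1 EtOH library of each genotype lay within the saline range. Ppp1r1b, which encodes DARPP-32, had 26.5, 47.3 and 49.2 in WT saline, 26.2, 190 and 461 in WT EtOH, 79.1, 12.2 and 19.4 in KO saline and 39.4, 114 and 191 in KO EtOH libraries. Both genes were high in the same 4 EtOH libraries, WT replicates 5 and 14 and KO replicates 12 and 18, whose striatal sums were 466, 927, 239 and 421, and their part in the result was not tested. In all, 5 of 7 striatal markers, a list made with earlier results of these data known, were higher at an unadjusted p under 0.05 (Penk, Adora2a, Ppp1r1b, Rgs9 and Drd2), beside 3.15% of all genes, with a median log2 fold change of 2.02 over the list, 2.46 in WT and 0.89 in KO mice. In whole tissue, more cells of a type and more RNA per cell cannot be told apart.

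Transcription factors of forebrain development differed on few counts. Six3, a homeobox factor of the eye, forebrain and striatal progenitors, had 5 counts in the 3 WT saline libraries together and 189 in the 3 WT EtOH libraries, and 6 in KO saline and 84 in KO EtOH libraries. Its level was 0.919, 0 and 0 against 8.1, 1.48 and 5.27 in WT mice and 0.221, 0 and 0.263 against 0.395, 3.34 and 4.88 in KO mice. These values did not overlap, but their separation is within counting error. The limit of 1.54 in WT saline replicate 3, where Six3 had 0 counts, exceeds the 1.48 of WT EtOH replicate 5. In KO EtOH replicate 12 the value of 3.34 is below the level of 3 counts (5.01). Isl1, a LIM homeobox factor of direct-pathway striatal neurons, had 2 counts in WT saline and 186 in WT EtOH libraries, and 11 in KO saline and 89 in KO EtOH libraries, of which 82 were in replicate 18. Gpr101, an orphan receptor, had 1 count in WT saline, 137 in WT EtOH, 7 in KO saline and 19 in KO EtOH libraries. Pdlim3, a cytoskeletal PDZ-LIM protein gene, had 7, 73, 8 and 38 counts in the same order of groups. No fold is given for these 4 genes, since their saline levels were at or below the limit set by 3 counts in most libraries.

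A group of 3 genes of the same rank had higher counts. Crabp1, a retinoic acid-binding protein, was at 2.02, 0.514 and 2.67 in WT saline, 2.66, 14.4 and 55.3 in WT EtOH, 5.16, 0.761 and 0.526 in KO saline and 5.68, 8.36 and 21.4 in KO EtOH libraries, with a log2 fold change of 3.05 (standard error 0.75). Its groups overlapped in WT mice, where 1 EtOH library (2.66) lay below 1 saline library (2.67). Pcp4l1, a calmodulin-binding peptide gene related to Pcp4, was at 4.04, 6.68 and 5.2 against 65.8, 40.2 and 120 in WT mice and at 21.6, 2.69 and 13.3 against 18.1, 18.4 and 57.1 in KO mice, with a log2 fold change of 2.56 (standard error 0.61) and an unadjusted interaction p of 0.0191. Ecel1, an endothelin-converting enzyme-like protease gene of neurons, showed a log2 fold change of 2.60 (standard error 0.66) on 19, 441, 60 and 161 counts in WT saline, WT EtOH, KO saline and KO EtOH libraries. WT EtOH replicate 4, with its thalamic markers, had the highest or second highest WT level of Pcp4l1 and Ecel1 (65.8 and 20.9), whereas it was the lowest of the WT EtOH libraries for Penk and Crabp1. Without WT EtOH replicate 4 and the 2 shallow libraries, the log2 fold changes were 2.23 for Penk, 3.18 for Crabp1, 2.71 for Pcp4l1 and 2.04 for Ecel1.

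Among genes that were lower after ethanol, Ado had the smallest p. It encodes 2-aminoethanethiol dioxygenase, an oxygen-sensing enzyme that oxidises cysteamine and the N-terminal cysteine of regulatory proteins. Its level was 159, 89.0 and 142 in WT saline and 46.0, 59.2 and 55.0 in WT EtOH libraries, and 62.7, 86.4 and 77.1 in KO saline and 42.3, 51.8 and 52.2 in KO EtOH libraries. The groups did not overlap in either genotype, and each EtOH library was below all 6 saline libraries. The log2 fold change was -0.96 (standard error 0.24, unadjusted p = 0.00117, exact permutation p = 0.005, two-sided), -1.29 in WT and -0.63 in KO mice, with values between -1.06 and -0.87 when each library was left out in turn.

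Slc16a7 encodes MCT2, the high-affinity monocarboxylate transporter with which neurons take up lactate and ketone bodies. It was at 22.8, 17.0 and 16.4 in WT saline and 8.89, 12.4 and 5.45 in WT EtOH libraries, and at 6.71, 19.1 and 16.7 in KO saline and 6.63, 3.34 and 4.06 in KO EtOH libraries. The groups were apart in both genotypes, though KO saline replicate 7 (6.71) and KO EtOH replicate 10 (6.63) were nearly equal. The value of 3.34 in KO EtOH replicate 12 is below the level of 3 counts there (5.01). The log2 fold change of Slc16a7 was -1.28 (standard error 0.35, exact permutation p = 0.005), and it was -1.06 in WT and -1.50 in KO mice, with an unadjusted interaction p of 0.528. Tmtc4, an endoplasmic reticulum protein O-mannosyltransferase, was at 128, 62.2 and 96.6 against 10.5, 14.9 and 43.4 in WT mice and at 29.9, 74.4 and 53.3 against 34.1, 15.0 and 24.9 in KO mice, with a log2 fold change of -1.56 (standard error 0.40). Its groups were apart in WT mice and overlapped in KO mice. Slain2, which promotes microtubule growth, was at 106, 58.6 and 65.7 against 36.1, 42.2 and 44.4 in WT mice and at 36.8, 72.0 and 47.1 against 35.8, 20.1 and 34.1 in KO mice, apart in both, with a log2 fold change of -0.83 (standard error 0.26).

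The remaining genes of this rank were the receptor gene Glp2r (log2 fold change -1.78), the ciliary transport gene Ttc30a1 (-1.30), the zinc finger gene Zfp60 (-1.05), Ccdc71l (-1.01), the chemokine gene Ccl6 (-1.69) and the lymphocyte receptor gene Klrg1 (-2.13). Glp2r and Ttc30a1 had groups that did not overlap. Glp2r had 0 counts in KO EtOH replicate 12, where the limit of 5.01 exceeds its KO saline levels of 2.36, 4.51 and 4.74, so that the order in KO mice rests on replicates 10 and 18 (2.05 and 1.90). Ccl6 and Klrg1 are genes of leukocytes, and their levels in WT saline replicates 1 and 13 were 14.7 and 19.4 (Ccl6) and 2.39 and 0.594 (Klrg1), in libraries whose blood marker sums were 1319 and 482. The blood sum was also high in KO EtOH replicate 12 (766), for which the levels of Ccl6 and Klrg1 are not given here. The blood markers are hemoglobin genes and Alas2, so their sum does not measure leukocytes. The part of blood in the levels of Ccl6 and Klrg1 was not tested.

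Among the genes named were 3 clustered protocadherins, adhesion molecules that give neurons a surface identity. Pcdha8 was at 32.5, 18.0 and 5.35 against 0.906, 1.95 and 0 in WT mice but at only 1.18, 0 and 2.11 against 0.395, 0 and 0 in KO mice. Pcdhb17 was at 46.7, 20.1 and 28.2 against 16, 14 and 13.9 in WT mice and at 13.3, 18.0 and 14.7 against 8.53, 3.34 and 10.9 in KO mice, with a log2 fold change of -1.0 (standard error 0.30). Here too the value of 3.34, in KO EtOH replicate 12, is below the level of 3 counts (5.01). Pcdha5 showed a log2 fold change of -1.24 (standard error 0.42). Another member, Pcdha10, had groups without overlap and was also lower (log2 fold change -1.02). Pcdhgb7 had groups without overlap in the opposite direction (log2 fold change 0.70, standard error 0.41), so no direction of the family is read from these genes. Genes of the alpha cluster share their last exons and those of the beta cluster are similar in sequence, so how the authors' quantification divided reads among them is uncertain.

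**Figure D3:**
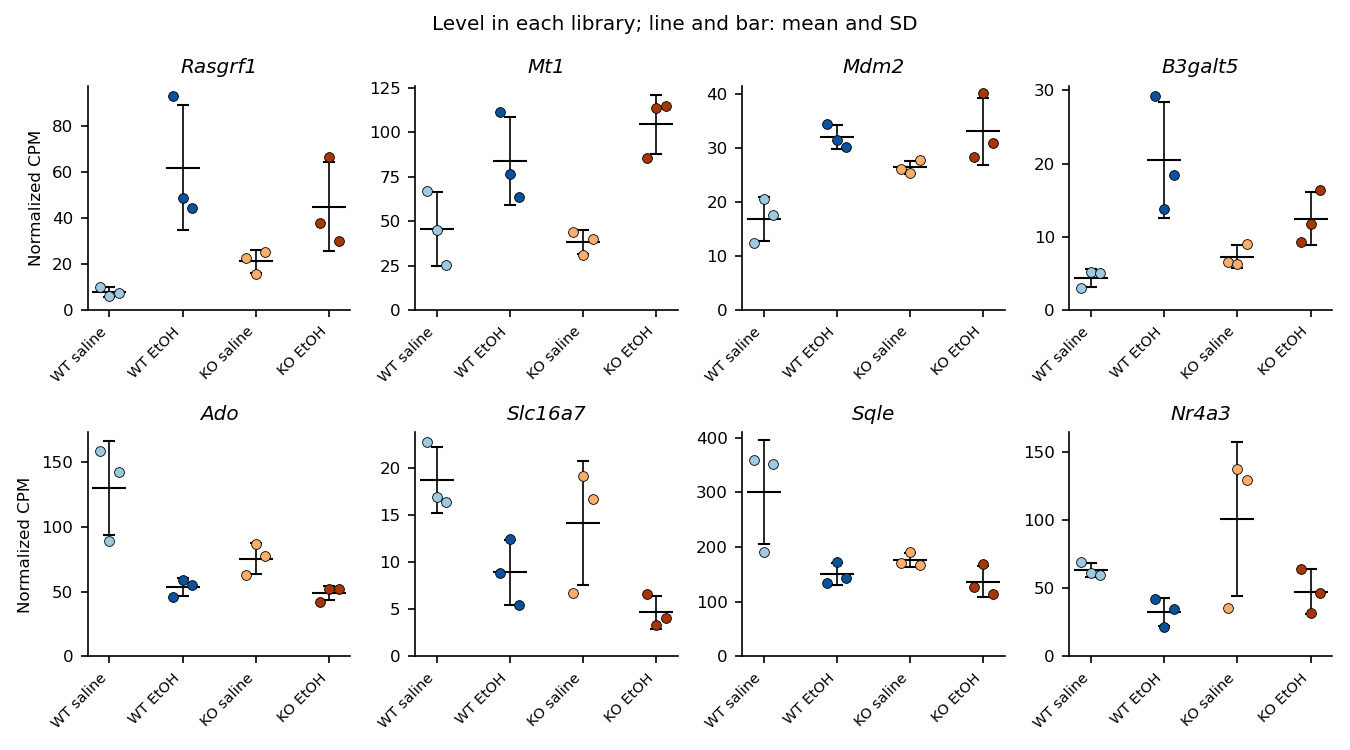
Normalized CPM (vertical axes, linear from 0) of 8 genes in the 3 libraries of each group (points), with the group mean (horizontal line) and SD (bar). EtOH points lie above all saline points of the same genotype for Rasgrf1, B3galt5 and Mdm2, and below them for Ado and Slc16a7, whereas Mt1, Nr4a3 and Sqle overlap in at least 1 genotype.

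The 80 genes without overlap also included abundant genes, named here after their values were seen. Satb1, a chromatin organiser of cortical neurons, was at 225, 301 and 170 against 32.0, 124 and 145 in WT mice and at 202, 240 and 214 against 138, 135 and 129 in KO mice (log2 fold change -0.96). Dcx, the microtubule-binding protein of migrating neurons, was at 895, 820 and 568 against 275, 559 and 528 in WT mice and at 490, 881 and 553 against 425, 207 and 421 in KO mice (log2 fold change -0.80). Marcks, an actin-binding substrate of protein kinase C, had a log2 fold change of -0.90, the anchoring protein gene Akap7 one of -0.89, and the chloride transporter gene Clcn4 one of -0.60. Mef2c, an activity-regulated factor of excitatory neurons, was at 2419, 2043 and 2243 against 148, 1372 and 1696 in WT mice and at 1361, 2162 and 1364 against 970, 923 and 1084 in KO mice, and its lowest value was in WT EtOH replicate 4, the library with the high thalamic markers. Higher genes outside the rule included Mertk, the phagocytic receptor of microglia and astrocytes (log2 fold change 1.01), Tesc (1.47), a calcium-binding protein gene, Rab26 (1.11), a vesicle GTPase gene, and Adra2c (1.31), an adrenergic receptor gene that is abundant in striatum.

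Of 25 targets of p53, 23 were tested, and their median log2 fold change was 0.04, 0.07 in WT and 0.05 in KO mice. Mdm2 and Ei24 had an unadjusted p under 0.05. Mdm2, the ubiquitin ligase that degrades p53, was at 12.5, 20.6 and 17.6 in WT saline and 34.4, 31.4 and 30.2 in WT EtOH libraries, and at 26.1, 25.4 and 27.8 in KO saline and 28.3, 40.1 and 30.9 in KO EtOH libraries. The groups were apart in both genotypes, by a narrow margin in KO mice (27.8 and 28.3). The log2 fold change of Mdm2 was 0.62 (standard error 0.24, exact permutation p = 0.005), 0.93 in WT and 0.30 in KO mice, with an unadjusted interaction p of 0.187. Its unadjusted p was above 0.05 without the 3 libraries named above. Ei24, an endoplasmic reticulum protein gene induced by p53, had a log2 fold change of -0.68, with -1.22 in WT and -0.13 in KO mice. Cdkn1a, the cell cycle inhibitor p21, had 0.41 (exact permutation p = 0.515).

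Of 27 regulators of cell death, 26 were tested, and the median log2 fold change over the list was -0.01, with 0.30 in WT and -0.04 in KO mice. Of these genes, 6 were higher and 6 lower in both genotypes (23.3% and 19.9% of all genes). These are transcript levels, and the cleavage of proteins in apoptosis is not visible in them.

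All 25 listed genes of cholesterol synthesis and uptake were tested. Of these, 9 were lower and 1 was higher in both genotypes (19.9% and 23.3% of all genes), and the median log2 fold change was -0.32, with -0.06 in WT and -0.35 in KO mice. The sign was thus the same in WT and KO mice for 10 of the 25 genes and opposite for the others. The interaction had an unadjusted p under 0.05 for 7 of the 25, beside 15.2% of all genes. Sqle, Cyp51 and Msmo1, which encode squalene epoxidase and enzymes that demethylate lanosterol, had an unadjusted p under 0.05. Sqle was at 359, 191 and 351 in WT saline and 134, 173 and 144 in WT EtOH libraries, and at 171, 192 and 167 in KO saline and 128, 169 and 114 in KO EtOH libraries, apart in WT mice and with 1 overlapping library in KO mice. Its log2 fold change was -0.69 (standard error 0.26, exact permutation p = 0.01). Cyp51 was at 225, 156 and 208 against 145, 171 and 122 in WT mice and at 115, 225 and 156 against 83.0, 129 and 83.6 in KO mice, and its log2 fold change was -0.59 (standard error 0.25). Msmo1 showed a log2 fold change of -0.75 (standard error 0.35, exact permutation p = 0.125), which was -0.42 without WT saline replicate 1, the library with its highest level (460). Without the 2 shallow libraries, 10 of the 25 genes had an unadjusted p under 0.05 and all 10 were lower (Fdps, Sqle, Fdft1, Msmo1, Acat2, Cyp51, Ebp, Nsdhl, Idi1 and Hsd17b7), beside 12.7% of all genes, and the median was -0.49, with -0.37 in WT and -0.46 in KO mice. The level of Fdps in KO EtOH replicate 12 was 461, against 76.5 and 67.0 in the other KO EtOH libraries. Scaling by library size alone gave a list median of -0.15, where the median of all genes was 0.23.

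Promoters of 2 of these genes are shown because sterol-responsive genes are known to carry CCAAT boxes, the sites of NF-Y. Both are RefSeq windows of the same length on the minus strand (GRCm38.p6), written 5′ to 3′ along the gene, with CCAAT on either strand in capitals. The Cyp51 window (chr5:4104648-4104947) holds 1 match and the Msmo1 window (chr8:64733529-64733828) holds 3, and 37.4% of 32851 promoters hold at least 1 and 11.7% hold 2 or more. The core of a sterol element, TCACNCCAC, was also searched on both strands, and it had 0 matches in each window and at least 1 in 1.24% of all promoters, which says only that these letters are not in these windows.
Cyp51: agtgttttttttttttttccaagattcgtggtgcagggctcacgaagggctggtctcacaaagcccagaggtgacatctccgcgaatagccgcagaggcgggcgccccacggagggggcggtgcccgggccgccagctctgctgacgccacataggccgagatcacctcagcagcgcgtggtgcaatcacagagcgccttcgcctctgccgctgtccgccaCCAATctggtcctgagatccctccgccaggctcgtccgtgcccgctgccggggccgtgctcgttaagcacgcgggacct
Msmo1: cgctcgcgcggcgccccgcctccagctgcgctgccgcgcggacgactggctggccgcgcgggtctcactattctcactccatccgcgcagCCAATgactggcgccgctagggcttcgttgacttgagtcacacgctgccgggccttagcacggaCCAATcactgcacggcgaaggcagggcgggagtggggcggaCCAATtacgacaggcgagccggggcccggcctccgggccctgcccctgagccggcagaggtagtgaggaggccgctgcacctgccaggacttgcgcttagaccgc

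Among 21 immediate early genes tested, Nr4a3 and Fosl2 were lower and Arc and Jun higher at an unadjusted p under 0.05, and the list median was 0.27. Nr4a3, an orphan nuclear receptor induced by neuronal activity, was at 69.6, 61.2 and 59.9 in WT saline and 41.8, 21.4 and 35.1 in WT EtOH libraries, and at 35.5, 138 and 129 in KO saline and 64.4, 31.8 and 46.6 in KO EtOH libraries. Its log2 fold change was -1.01 (standard error 0.32, exact permutation p = 0.04), -0.96 in WT and -1.05 in KO mice, and the groups were apart in WT mice, while in KO mice 1 saline library (replicate 7) lay within the EtOH range. Arc, a regulator of AMPA receptor endocytosis, was at 0.919, 3.09 and 1.71 against 10.4, 4.82 and 4.74 in WT mice and at 7.6, 2.52 and 7.81 against 5.29, 11.7 and 9.26 in KO mice, with a log2 fold change of 1.16 (standard error 0.47). Jun had 0.83 and Fosl2 -0.68. Fosl2 was at -0.44 and no longer had an unadjusted p under 0.05 without the 2 shallow libraries, nor had Arc without the 3 libraries.

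Of 30 genes of the ATF4 and integrated stress response, Chac1, a glutathione-degrading enzyme induced by ATF4, alone had an unadjusted p under 0.05. It was at 13.2, 13.9 and 10.2 against 4.47, 3.34 and 4.57 in WT mice and at 13.0, 9.31 and 16.3 against 12.9, 6.69 and 6.09 in KO mice, with a log2 fold change of -1.06 (standard error 0.34). The list median was -0.26, with 10 members lower and 2 higher in both genotypes (19.9% and 23.3% of all genes). Without the 2 shallow libraries, 8 genes of this list were lower at an unadjusted p under 0.05 (Asns, Gars, Psat1, Chac1, Psph, Nars, Phgdh and Slc7a3, mostly of amino acid synthesis and tRNA charging) and 0 higher in edgeR, beside 12.7% and 10.7% of all genes. Leaving out the 3 libraries gave 5 lower genes, beside 8.22% of all genes. None of 18 genes of the unfolded protein response (median -0.16), 20 heat shock genes (median -0.11), 16 genes of ethanol and acetaldehyde metabolism (median -0.15), 14 of fatty acid synthesis (median -0.09), 18 circadian clock genes (median 0.15) or 16 inflammatory and reactive glia genes (median 0.28) had an unadjusted p under 0.05 in edgeR, and their medians lie beside 0.01 for all genes. Without the 2 shallow libraries, 7 of the 18 unfolded protein response genes were lower (Dnajb9, Xbp1, Calr, Manf, Pdia6, Canx and Edem1, chaperones and regulators of protein folding) and 0 higher, beside 12.7% and 10.7% of all genes, and the list median was -0.30. Without the 3 libraries 5 of the 18 were lower, beside 8.22% of all genes. Of 19 NRF2 antioxidant genes (median -0.11), Gstm1 had a log2 fold change of 0.61 (exact permutation p = 0.035), which was 0.43, with an unadjusted p above 0.05, without the 2 shallow libraries. There, 5 other genes of the list were lower (Prdx1, G6pdx, Fth1, Ftl1 and Taldo1), beside 12.7% of all genes. Of 19 FoxO and fasting-responsive genes (median 0.36), Txnip, an inhibitor of thioredoxin and glucose uptake, was at 83.6, 41.1 and 113 against 165, 104 and 113 in WT mice and at 45.1, 50.2 and 35.1 against 72.6, 30.1 and 110 in KO mice (log2 fold change 0.70, exact permutation p = 0.11). The inflammatory median became -0.01 without the 2 shallow libraries and -0.19 without the 3 libraries. Where counts were scaled by library size alone, the medians of unfolded protein response (0.06), heat shock (0.10), ethanol metabolism (0.17), fatty acid synthesis (0.13) and NRF2 (0.16) genes were above 0 but below the 0.23 of all genes. On log2(RPKM + 1) the medians of ethanol metabolism (0.04), fatty acid synthesis (0.01) and NRF2 (0.07) genes were above that of all genes (-0.0041).

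The receptors on which ethanol acts were also examined. Of 12 GABA-A receptor subunits, 6 were lower and 0 higher in both genotypes (19.9% and 23.3% of all genes), with a median log2 fold change of -0.28, -0.02 in WT and -0.73 in KO mice. Of 6 NMDA receptor subunits tested, none had an unadjusted p under 0.05 in edgeR (median 0.15). Of 9 AMPA and kainate receptor subunits (median 0.53), Grik2 had a log2 fold change of 0.97 (exact permutation p = 0.05). Its values were 1.93 in WT and 0.02 in KO mice, so the difference was seen in WT mice. The interaction p of 0.00121 is unadjusted. Cdk1 and Pcna, of 22 proliferation genes, had log2 fold changes of -0.89 and -0.91, and 12 genes of the list were lower and 0 higher in both genotypes (19.9% and 23.3% of all genes), with a median of -0.24. Without WT saline replicate 1, where Cdk1 was at 52.2 and Pcna at 465, these values were -0.49 and -0.46.

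**Figure D4:**
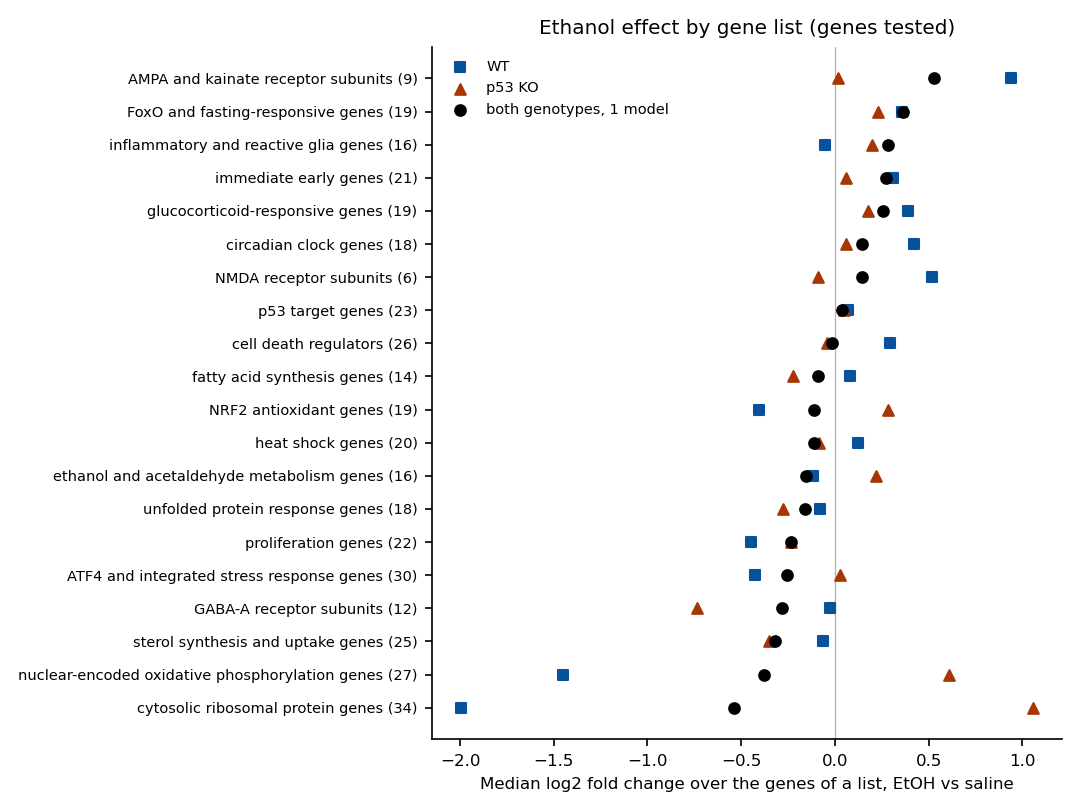
Median log2 fold change of EtOH versus saline (horizontal axis) over the tested genes of 20 lists (rows, with the number of genes tested), in WT mice (squares), in p53 KO mice (triangles) and in the model of both genotypes (circles). Most medians of both genotypes lie within 0.5 of 0, and the WT and KO values are farthest apart for oxidative phosphorylation and ribosomal protein genes.

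For genes of oxidative phosphorylation and of the cytosolic ribosome, the direction in KO mice turned on a single library. The median log2 fold change of 34 ribosomal protein genes was -2.00 in WT and 1.06 in KO mice, 0 of them had the same direction in both genotypes, and 28 had an unadjusted interaction p under 0.05. For 27 genes of oxidative phosphorylation the medians were -1.45 and 0.61, with 20 genes at this level. These KO values rested on replicate 12, the library with 719735 counts. Without the 2 shallow libraries the KO medians were -0.46 and -0.07, the WT medians were -2.46 and -1.83, and 32 of 34 and 19 of 27 genes were lower at an unadjusted p under 0.05, beside 12.7% of all genes. Without the 3 libraries, 28 and 10 were lower, beside 8.22%. Blood markers had the same pattern, with medians of -2.86 in WT and 1.80 in KO mice, and of -3.38 and -1.36 without the 2 shallow libraries. The part of depth and blood in these values was not tested. As a contrast to the shared effect, the 3 genes with the smallest interaction p were Hivep3, Cit and Rims1, whose log2 fold changes were 3.31, 4.15 and 2.61 in WT and -1.06, -0.27 and -0.47 in KO mice.

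**Figure D5:**
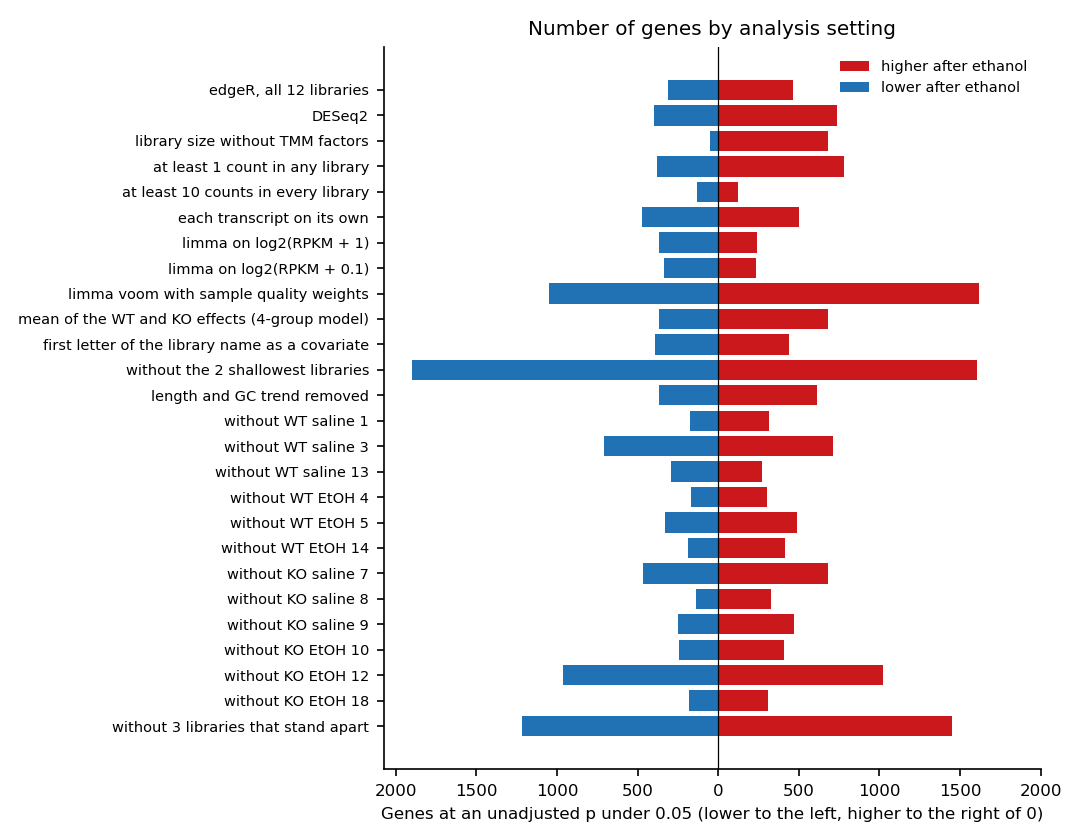
Number of genes with an unadjusted p under 0.05 for ethanol across both genotypes, lower to the left and higher to the right of 0 (bars), for the edgeR analysis of all 12 libraries and 25 alternatives (rows). The number was 775 with all libraries, and the longest bars are those without the 2 shallowest libraries and those with library quality weights.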

How the data were processed

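Stranded RNA-Seq was made from somatosensory cortex of 12 mice, 3 per group, and groups and replicate numbers were taken from the sample labels. The authors removed low-quality reads, aligned the rest to mm10 with Bowtie2 within TopHat and estimated counts per RefSeq transcript in Partek Flow, with versions not given in the sources used here. The deposited estimated counts are unscaled and contain fractions. The deposited RPKM values were scaled by the authors to nearly the same distribution in every library and were used only in alternatives.

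Estimated counts were summed per gene symbol (24452 symbols from 35840 transcripts) and rounded. They were tested in edgeR 4.0.16 (R 4.3.3) with filterByExpr, TMM and a quasi-likelihood model of Genotype and Treatment, which left 14739 genes, and p-values were adjusted by Benjamini-Hochberg over all of them. The WT, KO and interaction values are from a model with 1 mean per group. The exact permutation test exchanged treatment labels within genotypes on log2(normalized CPM + 1), was two-sided and cannot give a p under 0.005. Each library is 1 mouse, and p-values measure the spread between these libraries. All 400 assignments were enumerated, and tables and figures were made with matplotlib 3.10.9, pandas 2.3.3 and numpy 2.4.6 (Python 3.11.15). The models were tested on simulated data.

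The genes named were Trp53, the 12 higher and 12 lower genes with the smallest p and the same sign in both genotypes, the 5 in each direction with the largest difference among genes with a mean normalized CPM of at least 1 whose groups did not overlap, up to 4 per list with the smallest p, and the 3 with the smallest interaction p, of which not all are printed. The members, the 20 gene lists and the 12 marker lists were chosen with earlier results of these data known. The alternatives were DESeq2 1.42.0, library size without TMM, filters of at least 1 count in any library or 10 in every library, single transcripts, limma 3.58.1 on log2(RPKM + 1) and log2(RPKM + 0.1), limma voom with quality weights, the mean of the WT and KO effects, the first letter of the library name as a covariate, removal of length and GC trends, each library left out in turn and both shallow libraries left out. The shallow libraries are also the only ones whose names open with L, a letter the labels do not explain, so depth and this name class cannot be told apart. Leaving out 3 libraries was added after seeing the data. Some genes that the rule names are not reported here.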

Additional observations from a re-analysis of the deposited data

How the results depend on the processing

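No gene had an adjusted p under 0.05 for the shared effect in any alternative but DESeq2, which gave 14 (0 to 0 with each library left out in turn). Counts at an adjusted p under 0.30 were 0 with all libraries in edgeR, 84 with DESeq2, 2977 with voom and quality weights, 1 with the mean of the WT and KO effects, 5404 without both shallow libraries and 3187 without 3 libraries. At an unadjusted p under 0.05 the count of 775 became 251 with at least 10 counts in every library, 2670 with voom, 3507 without both shallow libraries, 2665 without 3 libraries and 465 to 1983 with each library left out. The 80 genes without overlap became 34 with at least 10 counts in every library, 123 for single transcripts, 1482 and 1540 without 2 and 3 libraries and 92 to 521 with each left out, where groups of fewer libraries are separated more easily. The causes of the other changes were not tested. All 46 named genes that were compared across settings had an unadjusted p under 0.05 with all libraries, and 0 of their 1124 alternative values reversed in direction. These genes were chosen by their values in the same libraries that the alternatives refit, so an unchanged direction is no independent check. The p was no longer under 0.05 for 2 of the 46 genes without both shallow libraries, for 4 without 3 libraries, for 11 with library size scaling and for 14 without at least 1 single library. No paired analysis was possible because the groups share no replicate number. In KO EtOH replicate 12 a gene with 0 counts may have had a level of up to 5.01 normalized CPM.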
